A study of Mus musculus with 5 samples.

Results

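A bidirectional promoter is a stretch of DNA from which 2 genes are read outwards, on opposite strands, from start sites that lie next to each other. Here a bidirectional protein-coding promoter was a pair of protein-coding genes on opposite strands of an autosome whose transcription start sites (TSSs) diverge without overlap and lie 1000 bp or less apart, by the gene models of GENCODE release M21 on the mouse build mm10. The TSS of a gene was its annotated 5' end, and the region of a pair was the span between the TSSs with 500 bp added on each side. The rule gave 714 pairs, out of 20073 autosomal protein-coding promoters when each pair is counted once, and the pairs hold 1428 of 20807 genes (6.86%). The other 19359 promoters were read as the TSS with 500 bp on each side and are called unpaired. The pairs were chosen from the annotation alone, without the peaks.

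The samples are MG tumors, a mouse model of medulloblastoma made from cerebellar stem cells of C57BL/6 pups that were given Myc and Gfi1 by retrovirus and transplanted, so that every tumor carried both transgenes and Gfi1 was supplied by one of them. Gfi1 and Lsd1 were each immunoprecipitated from tumors 39 and 41 with rabbit polyclonal antibodies, which gave 4 ChIP-seq peak lists, 2 per factor, with 1 tumor as 1 replicate. The listed input control is a pool of MGB tumors, which carry Myc and Gfi1b, and it was not analysed here. The Gfi1 lists hold 36836 and 25078 peaks and the Lsd1 lists 30367 and 33213, tumor 39 first, with no read counts, so that the depth behind a single peak is unknown. The score of a peak is given here as a percentile, which is its rank among all peaks of its own list, from 0 to 100. Where 4 values stand together, they follow the order Gfi1 tumor 39, Gfi1 tumor 41, Lsd1 tumor 39, Lsd1 tumor 41.

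Bidirectional promoters are a common arrangement in mammalian genomes and are known for housekeeping genes, above all those of DNA repair, mitochondria and the cell cycle. Most lie in CpG islands, stretches rich in the dinucleotide CpG, and lack a TATA box. Gfi1 is a zinc finger repressor of transcription that recruits Lsd1 through its SNAG domain, and Lsd1 is a histone demethylase that works in complexes with CoREST.

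The bases between the TSSs of 9 pairs are shown because these pairs stand for the classes described in the results. They were read from the plus strand of GRCm38, the build of mm10, 5' to 3', so that the minus-strand gene starts to the left of the first base and the plus-strand gene to the right of the last. Capitals mark every match, on either strand, to the motifs searched, which in these spans are CCAAT (NF-Y, read as ATTGG on the other strand), GGGCGG (Sp1, read as CCGCCC) and, as the TATA box, TATAAA. The first 2 pairs hold replication-dependent histone genes and were among the 5 with the highest mean percentile, at chr13:23574197-23574380 and chr3:96219710-96219864. Brca1/Nbr1 at chr11:101551956-101552148, Wrap53/Trp53 at chr11:69580256-69580358 and Toe1/Mutyh at chr4:116807641-116807722 are textbook bidirectional promoters of DNA repair and tumor suppression. Ginm1/Ppil4 at chr10:7792825-7792890 ranked higher for Gfi1 than for Lsd1 in both tumors, and Tctn3/Entpd1 at chr19:40612234-40612365 ranked higher for Lsd1. Lrrc63/Lcp1 at chr14:75130882-75131100 and Col4a4/Col4a3 at chr1:82586850-82586920 had no peak in any list.
Hist1h2bf/Hist1h2ad: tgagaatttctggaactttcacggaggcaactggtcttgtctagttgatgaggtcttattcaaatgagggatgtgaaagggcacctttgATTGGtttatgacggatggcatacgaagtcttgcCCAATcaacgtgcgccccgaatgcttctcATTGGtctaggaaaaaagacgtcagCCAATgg
Bola1/Hist2h2ab: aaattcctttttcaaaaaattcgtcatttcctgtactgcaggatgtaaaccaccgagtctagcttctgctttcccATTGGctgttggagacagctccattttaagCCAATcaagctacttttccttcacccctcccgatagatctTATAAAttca
Brca1/Nbr1: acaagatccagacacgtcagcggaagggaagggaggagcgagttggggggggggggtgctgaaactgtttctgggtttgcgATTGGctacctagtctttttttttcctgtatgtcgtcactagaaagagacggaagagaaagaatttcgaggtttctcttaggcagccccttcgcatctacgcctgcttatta
Wrap53/Trp53: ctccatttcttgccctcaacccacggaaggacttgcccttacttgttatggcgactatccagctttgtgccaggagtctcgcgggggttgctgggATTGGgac
Toe1/Mutyh: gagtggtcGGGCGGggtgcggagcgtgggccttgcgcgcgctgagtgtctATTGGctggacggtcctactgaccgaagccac
Ginm1/Ppil4: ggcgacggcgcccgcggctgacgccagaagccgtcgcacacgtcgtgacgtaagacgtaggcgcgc
Tctn3/Entpd1: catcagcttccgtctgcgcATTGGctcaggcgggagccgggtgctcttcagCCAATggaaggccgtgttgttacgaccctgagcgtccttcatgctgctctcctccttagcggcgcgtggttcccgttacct
Lrrc63/Lcp1: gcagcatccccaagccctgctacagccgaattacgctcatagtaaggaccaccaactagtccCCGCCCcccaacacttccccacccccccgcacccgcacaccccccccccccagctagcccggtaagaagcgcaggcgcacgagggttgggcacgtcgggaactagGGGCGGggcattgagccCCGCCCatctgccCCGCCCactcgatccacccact
Col4a4/Col4a3: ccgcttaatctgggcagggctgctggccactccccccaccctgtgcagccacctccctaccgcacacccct
CCAAT stood in 6 of these spans, among them both histone promoters, where it occurred 4 times in Hist1h2bf/Hist1h2ad. The spans of Ginm1/Ppil4 and Col4a4/Col4a3 held none of the searched motifs, with 14 CpG in 66 bp and 2 CpG in 71 bp. In Lrrc63/Lcp1, which had no peak, the Sp1 letters occurred 4 times and 15 CpG lay within 219 bp.

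The distance between the TSSs of a pair ran from 1 to 987 bp with a median of 127 bp, and 585 pairs (81.9%) were at most 300 bp apart. A Gfi1 peak touched 691 of the 714 regions in tumor 39, which is 96.8% (exact 95% binomial interval 95.2% to 97.9%), where 60.7% of all autosomal coding promoters had one. In tumor 41 a Gfi1 peak touched 675 regions, 94.5% (92.6% to 96.1%), where 50% of all promoters had one. Bidirectional promoters were therefore nearly all occupied in both tumors, although the list of tumor 41 is the shortest of the 4. For Lsd1 the count was 686 regions in tumor 39, 96.1% (94.4% to 97.4%), where 54.5% of all promoters had a peak. Lsd1 in tumor 41 touched 687 regions, 96.2% (94.5% to 97.5%), where 57.6% of all promoters had a peak. These intervals cover counting error only, and regions of a genome are not replicates of a tumor.

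Unpaired promoters had a Gfi1 peak in 59.3% and 48.3% of cases and an Lsd1 peak in 53.0% and 56.2%, in tumors 39 and 41. The difference between bidirectional and unpaired promoters was 41.8 ± 6.20 percentage points for Gfi1 and 41.5 ± 2.17 for Lsd1 (SD, n = 2 tumors). It was several times the spread between the tumors, and it had the same sign in 4 of 4 lists. An exact two-sided sign-flip test over the 2 tumors gave p = 0.5 for each factor, which is the smallest value that 2 tumors can give. Gfi1 and Lsd1 themselves differed by -0.49 percentage points in their mean share of bidirectional promoters (95.7% ± 1.58 for Gfi1, SD, n = 2; exact two-sided permutation test of 2 against 2 libraries, p = 1).

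**Figure D1:**
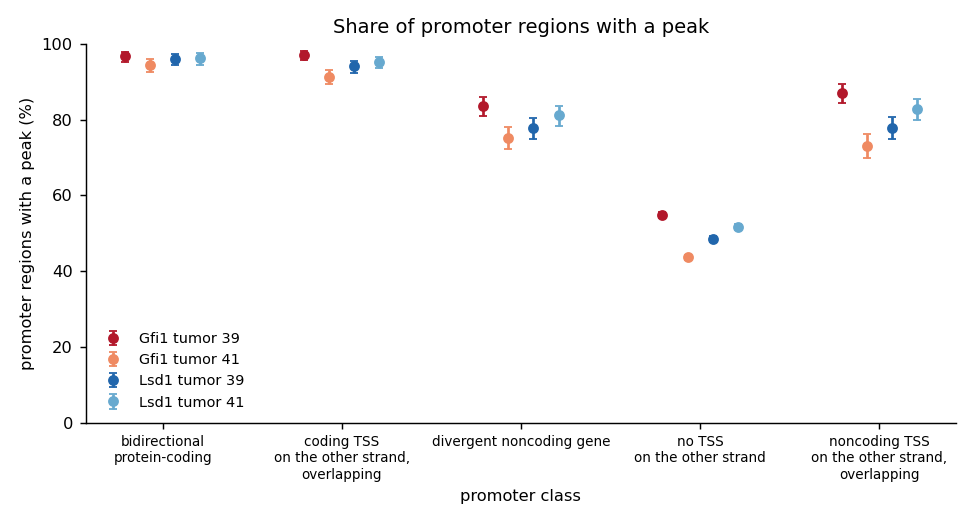
Share of promoter regions with at least 1 peak (%, vertical axis) in 5 classes of autosomal protein-coding promoters, with 1 point per ChIP library and exact 95% binomial intervals as bars. Bidirectional promoters lie between 94.5% and 96.8%, next to unpaired promoters with an overlapping coding TSS on the other strand (91.4% to 97.0%), and promoters with no TSS on the other strand lie between 43.6% and 54.9%.

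Unpaired promoters were not of one kind. In 873 of them another coding TSS lay within 1000 bp on the other strand in an overlapping arrangement. These carried peaks in 97.0%, 91.4%, 94.2% and 95.3%. Each gene was counted on its own here, so that both genes of an overlapping couple can enter and share a peak, while a divergent pair counts once. The binomial intervals of this class take its promoters as separate and can be too narrow. This class was as occupied as the divergent pairs within a few percentage points. The 855 promoters with a divergent noncoding gene carried peaks in 83.6%, 75.2%, 77.8% and 81.2%. Promoters with no TSS on the other strand within 1000 bp, 16852 in number, carried peaks in 54.9%, 43.6%, 48.5% and 51.7%.

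Peaks at bidirectional promoters ranked higher than those at unpaired promoters as a whole. The median percentile of the highest peak in a bidirectional region was 90.3, 87.8, 87.5 and 88.7 in the 4 lists. For unpaired promoters with a peak it was 81.7, 76.3, 78.0 and 80.1. The difference was 10.1 ± 2.00 percentile points for Gfi1 and 9.04 ± 0.671 for Lsd1 (SD, n = 2; exact two-sided sign-flip test, p = 0.5, the smallest possible). A peak in the upper 20% of its list touched 78.9%, 66.1%, 67.8% and 75.4% of the bidirectional regions, where the shares over all coding promoters were 33.7%, 22.4%, 26% and 29.9%. Unpaired promoters with an overlapping coding TSS ranked as high, with a difference of -0.01 ± 0.221 points for Gfi1 and 0.661 ± 1.41 for Lsd1 (SD, n = 2). Some of the high ranks are ties, because 805, 12, 113 and 419 peaks of the 4 lists share the score of 3100, which is not the highest score of a list. That score was held by the peaks of 96, 1, 14 and 52 pairs in the 4 lists.

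A peak was present in all 4 lists at 673 of the 714 pairs, 94.3% (exact 95% interval 92.3% to 95.8%), where 48.9% of all coding promoters and 47.2% of the unpaired ones had this. In 21 pairs (2.94%) no list had a peak, where 37.6% of all coding promoters had none. Only 20 pairs had peaks in some lists and not in others, namely 4 pairs in 1 list, 5 in 2 lists and 11 in 3 lists. Nr2e1/Ostm1, with a nuclear receptor of neural stem cells, was one of the 4, with a Gfi1 peak in tumor 39 alone. Of the 11 pairs in 3 lists, 9 lacked a Gfi1 peak in tumor 41, the shortest list, among them Cenpj/Parp4, of which Cenpj builds centrioles. At 393 pairs (55.0%) all 4 lists had a peak of the upper 20%, where 18% of all coding promoters did.

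Bidirectional promoters were richer in CpG than unpaired ones as a whole. The median was 68 CpG per 1000 bp around the TSSs of a pair, where unpaired promoters had 39, those with an overlapping coding TSS 65 and those with a divergent noncoding gene 68. The GC content was 59.75% at the median against 54.5%, and 92.0% of the pairs had 40 or more CpG against 49.5% of the unpaired promoters. Occupancy was lowest at low CpG content in both classes. Among the 22 pairs with fewer than 20 CpG a Gfi1 peak was found at 7 in tumor 39 and 5 in tumor 41, and an Lsd1 peak at 7 and 5. Between 20 and 40 CpG, 85.7% and 80% of 35 pairs had a Gfi1 peak, against 59.8% and 41.8% of unpaired promoters. In the class of 60 to 80 CpG all 231 pairs had a Gfi1 peak in tumor 39 and 230 in tumor 41, against 97.0% and 83.1% of unpaired promoters. With 80 or more CpG the shares of the pairs were 100%, 98.2%, 99.1% and 100%.

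When unpaired promoters were weighted to the CpG content of the pairs, in 10 classes, their share with a peak was 92.5%, 78.0%, 83.5% and 88.2%. Bidirectional promoters then exceeded them by 4.28, 16.5, 12.6 and 8.06 percentage points. The means, 10.4 for Gfi1 and 10.3 for Lsd1, were far below the unweighted differences of 41.8 and 41.5. The direction was the same in all 4 lists. With the 25078 highest peaks of every list the weighted excess was 6.39, 16.5, 14.4 and 10.0 points, so that it was smallest for Gfi1 in tumor 39 also at equal list length. The differences in percentile were 7.80 and 6.92 points with the weighting, and those in width 310.0 and 272.75 bp. Among promoters with 40 or more CpG, 58.9% of the pairs and 30.7% of the unpaired promoters had a peak of the upper 20% in all 4 lists.

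**Figure D2:**
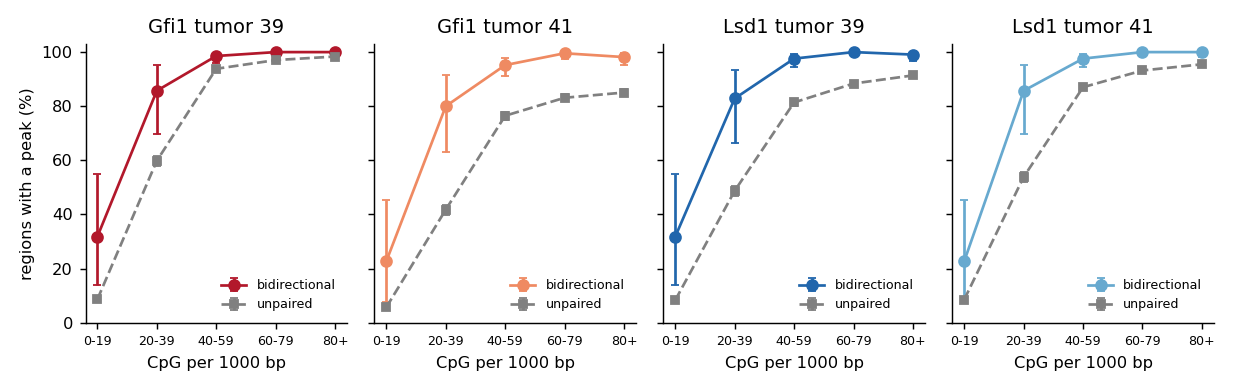
Share of regions with a peak (%, vertical axis) by the number of CpG per 1000 bp (horizontal axis), with 1 panel per library, circles for bidirectional and squares for unpaired promoters, and exact 95% binomial intervals as bars. Bidirectional promoters lie above unpaired ones in each class of each panel, and the gap is narrow from 40 CpG on for Gfi1 in tumor 39 (1.64 to 4.73 percentage points).

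The peak at a bidirectional promoter was in nearly all cases 1 peak over both start sites. A single peak covered both TSSs in 94.0% ± 2.08 of the pairs for Gfi1 and in 95.7% ± 0.198 for Lsd1 (SD, n = 2), and at 659 pairs (92.3%) this held in all 4 lists. More than 1 peak touched 7, 19, 5 and 3 of the regions. Peaks were wider than at unpaired promoters as a whole. The median width was 2383, 2540, 2788.5 and 2712 bp, against 2061, 2146, 2494 and 2354 bp at unpaired promoters. The difference was 358 ± 50.9 bp for Gfi1 and 326 ± 44.9 bp for Lsd1 (SD, n = 2; exact two-sided sign-flip test, p = 0.5, the smallest possible), with a median TSS distance of 127 bp inside the peak. Against unpaired promoters with an overlapping coding TSS it was 84.0 ± 29.7 bp and 43.25 ± 10.3 bp. Among peaks of the upper 20% alone the difference from all unpaired promoters in width turned to -8.0 bp for Gfi1 and -160.25 bp for Lsd1.

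Peaks reached well beyond the start sites into both genes of a pair. The median reach beyond the TSS was 1069, 1162, 1278.5 and 1245 bp into the minus-strand gene and 1049, 1150, 1247 and 1220 bp into the plus-strand gene. Which gene is on which strand is arbitrary, so that these medians say nothing of the evenness of a single peak. Within a pair the shorter arm had a median of 892, 970, 1069 and 1001 bp and the longer arm of 1295, 1434.5, 1536.5 and 1474 bp. The arms were sorted by length within each pair, so that the longer arm has the higher median by construction. At isolated unpaired promoters with 40 or more CpG the peak reached 791, 858, 998 and 919 bp upstream and 1217, 1247, 1415.5 and 1360 bp downstream at the median. These arms were split by the direction of transcription and not by length, so that the values are not like those of the sorted arms.

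**Figure D3:**
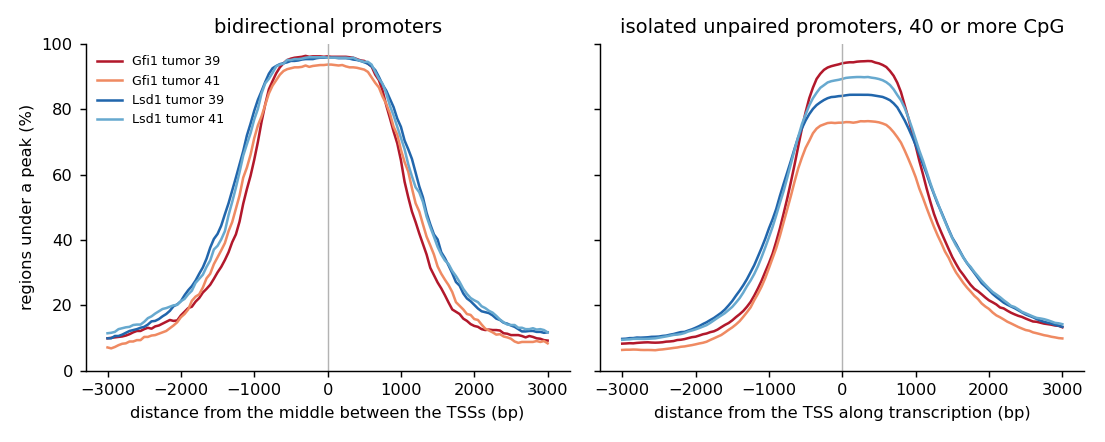
Share of regions lying under a peak (%, vertical axis) by position, for the 714 pairs from the middle between the TSSs (left) and for isolated unpaired promoters with 40 or more CpG from the TSS in the direction of transcription (right), with 1 line per library. The share is 93.7% to 96.2% at the middle of the pairs, whose left and right follow the genome and not a direction of transcription, and 75.9% to 94.1% at the TSS of the isolated promoters.

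Within single pairs the peak was not exactly centred. The peak's centre lay within 250 bp of the middle in 61.4%, 56.4%, 55.9% and 55.1% of the pairs. In 355 of the 659 pairs with 1 peak over both TSSs in all lists, 53.9%, the centre was on the same side of the middle in all 4 lists. Between any 2 lists the side was shared by 73.7% to 77.1% of the pairs, and the pairs of lists from 1 factor or 1 tumor lay within that range.

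Peaks were widest at the pairs with the widest gap between the TSSs. From pairs 1 to 100 bp apart (300 pairs) to those over 500 bp apart (66 pairs), the median width went from 2177 to 3031.5 bp and from 2405 to 3130 bp in the Gfi1 lists and from 2534 to 3322.5 bp and from 2477.5 to 3297 bp in the Lsd1 lists. The course between was not even, and in 2 lists the width was lower between 300 and 500 bp than between 200 and 300 bp (2527 against 2550 bp and 2820 against 2863.5 bp). The median percentile was 89.3, 85.8, 83.8 and 85.8 in the closest pairs and 93.5, 91.6, 91.1 and 92.9 in the widest. The share with a peak was lower in the widest class, at 90.9%, 87.9%, 90.9% and 89.4%, and so was the CpG content, with a median of 50.5 per 1000 bp against 69 in the closest class. The part of CpG content in this was not tested. One peak over both TSSs was found at 83.3%, 80.3%, 86.4% and 87.9% of the widest pairs. At the limit of the rule, 13 of the 15 pairs more than 800 bp apart had 1 peak over both TSSs in each list, and of 19 divergent pairs just outside the rule, up to 1200 bp apart, 15, 13, 16 and 15 did. Of the next 23 divergent pairs, up to 1500 bp apart, 10, 7, 10 and 10 did.

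**Figure D4:**
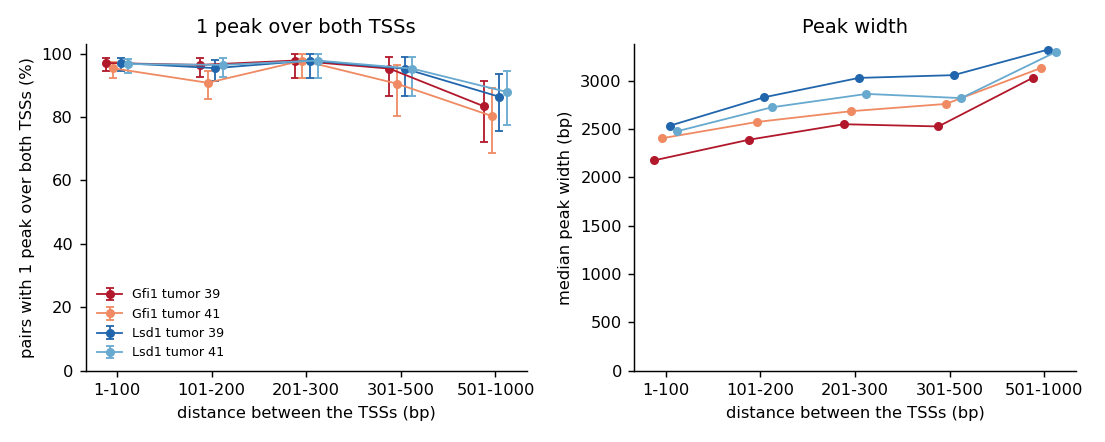
Share of pairs with 1 peak over both TSSs (%, left, with exact 95% binomial intervals) and median peak width (bp, right) by the distance between the TSSs in bp, with 1 line per library. The share is 90.5% or more up to 500 bp and between 80.3% and 87.9% beyond, while the width is largest there, between 3031.5 and 3322.5 bp.

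Some pairs nearly 1 kb apart had 1 peak over both TSSs. The examples here were chosen as the widest pairs with such a peak in all 4 lists, so that the single peak follows from the choice. Btf3l4/Txndc12 on chromosome 4, the widest pair with TSSs at 108833614 and 108834601, 987 bp apart, had 1 peak of 3936, 3775, 4002 and 4264 bp over both start sites. Its percentiles were 97.4, 98.5, 98.8 and 99.9, high in every list. Zfyve26/Rad51b on chromosome 12, 978 bp apart, where Rad51b takes part in homologous recombination, had percentiles of 89.6, 99.9, 99.4 and 99.2. Smim7/Tmem38a (967 bp) had 94.0, 98.6, 98.9 and 98.4. Asphd1/Sez6l2 (981 bp), with the neuronal membrane protein Sez6l2, was the most uneven of these 4, at 76.8, 64.9, 78.7 and 92.6.

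Short motifs, 10 in number, were searched on both strands in the 1000 bp around the TSS, or around the middle between the TSSs of a pair. The letters CCGGAAG, bound by ETS factors, occurred in 41.7% of the pairs and in 18.7% of all coding promoters, and with 40 or more CpG in 43.4% of pairs and 28.4% of unpaired promoters. AAGATGGCG (YY1) occurred in 9.80% of the pairs and 3.43% of all coding promoters, and GCGCATGCG (NRF1) in 7.28% and 2.87%. At 40 or more CpG the YY1 letters were in 10.2% of pairs against 5.63% of unpaired promoters, and the NRF1 letters in 7.76% against 4.90%. TATAAA was rarer in the pairs, 14.6% against 32.8% of all coding promoters, and 13.4% against 18.5% at 40 or more CpG. CCAAT was in 68.6% of pairs and 70.3% of all coding promoters. At 40 or more CpG it was in 68.5% of pairs and 64.2% of unpaired promoters, so that the direction turned. GGGCGG was in 89.8% of pairs and 60.4% of all coding promoters but in 92.8% and 92.3% once 40 or more CpG were required. CACGTG was in 21.8% of pairs and 17.1% of all coding promoters, but in 22.4% and 22.5% at 40 or more CpG, pairs against unpaired. CTACAATTC (ZNF143) was in 1.54% and 0.902%, and in 1.52% and 0.856% at 40 or more CpG.

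The Gfi1 letters were no commoner in these promoters. AATCAC, the core that Gfi1 recognises, occurred in 155 pairs, 21.7% (exact 95% interval 18.7% to 24.9%), against 27.6% of all coding promoters, and at 40 or more CpG in 21.2% of pairs and 20.5% of unpaired promoters. The longer TAAATCAC, which contains AATCAC, occurred in 4 pairs (0.560%) and in 1.93% of all coding promoters. Pairs with AATCAC had a median Gfi1 percentile of 90.01 and 88.2 in tumors 39 and 41, and pairs without it 90.4 and 87.7, so that the ranks were nearly equal. A match is only a match of letters, and none of these shares says which sites are bound.

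Among the groups of genes, the replication-dependent histones stood highest. These genes encode the core histones made in S phase and lie in clusters as head-to-head H2A and H2B genes. They gave 14 pairs with 27 genes, which is 40.3% of the group's genes. A peak was present in all 4 lists at 13 of the 14, each time in the upper 20%. Of all pairs 55.0% had such peaks in all 4 lists, and of all coding promoters 18%. Unpaired genes of the group had peaks in 97.5%, 95%, 97.5% and 97.5%, so that the occupancy is not particular to the pairs. The group's median percentile was 96.8, 98.8, 99.7 and 98.4 against 90.3, 87.8, 87.5 and 88.7 for all pairs, and its median peak width was 3532, 4178, 4157 and 4034 bp. Neighbouring histone pairs can share a peak, as Bola1/Hist2h2ab and Hist2h2ac/Hist2h2be did in every list, so that the 13 pairs are fewer than 13 separate peaks. Histone genes are near-identical copies, and reads that fit several copies could be assigned to either.

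Hist1h2bf/Hist1h2ad, with TSSs at 23574196 and 23574381 on chromosome 13, had the highest mean percentile of all 714 pairs, with 99.8, 99.4, 99.7 and 99.2. Its peak was 3532, 4909, 7552 and 4126 bp wide, and in the Lsd1 list of tumor 39 the same peak also covered Hist1h2ae/Hist1h2bg. Bola1/Hist2h2ab, whose Bola1 encodes a mitochondrial protein, stood at 98.6, 99.7, 99.7 and 99.2. Hist1h2ak/Hist1h2bn was the lowest histone pair with a peak, at 83.4, 94.2, 92.0 and 92.8. The exception was Hist1h2ba/Hist1h2aa, the testis forms of H2B and H2A, 306 bp apart with 46.5 CpG per 1000 bp, which had no peak in any list. The nearest peak lay 65561, 64466, 65304 and 65414 bp away.

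**Figure D5:**
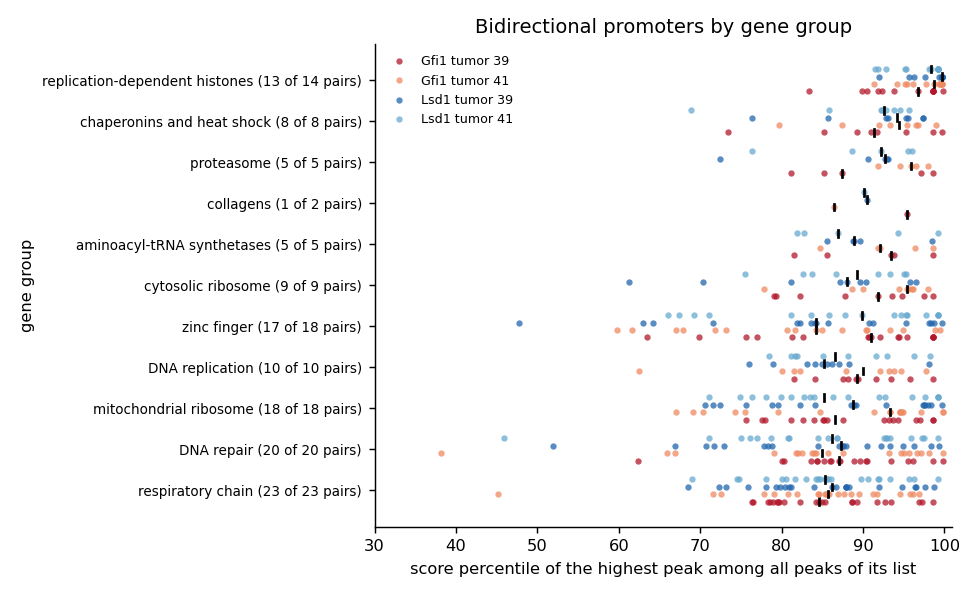
Score percentile of the highest peak at each bidirectional promoter (horizontal axis, rank within the list, from 30 to 100) by gene group, with 1 point per pair and library, black ticks for the median of a library, and in brackets the pairs with a peak in any list out of all pairs. The histone pairs lie at the right edge, with 83.4 as their lowest value, while the DNA repair group runs down to 38.2 at Rad54l/Pomgnt1.

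DNA repair genes, which keep the genome intact, gave 20 pairs and 29.0% of the group's genes. A peak was present in all 4 lists at 20 of 20, near the 94.3% of all pairs and above the 48.9% of all coding promoters. Brca1/Nbr1, the pair of a homologous recombination gene and a selective autophagy receptor gene, had percentiles of 90.5, 96.7, 94.9 and 93.4. Atm/Npat, the damage kinase gene and the gene of an activator of histone transcription, 307 bp apart, stood at 95.5, 95.6, 90.5 and 92.6. Both were in the upper 20% of every list. Toe1/Mutyh, with the glycosylase that removes adenine opposite oxidised guanine, had 86.0, 87.5, 72.9 and 80.8, lower for Lsd1 in both tumors. Xrcc3/Zfyve21 was the highest of the group at 99.8, 95.01, 98.4 and 97.5, and its Gfi1 peak in tumor 39 was 11786 bp wide, against 4840 to 5277 bp in the other lists. Rad54l/Pomgnt1, with a motor protein of recombination, was the lowest at 62.4, 38.2, 51.9 and 45.9. Unpaired DNA repair genes carried peaks in 93.9%, 91.8%, 93.9% and 93.9% of cases, so that they too were far above the 60.7%, 50%, 54.5% and 57.6% of all coding promoters.

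Wrap53/Trp53 on chromosome 11 joins a telomerase trafficking factor and the p53 tumor suppressor, 104 bp apart. It had percentiles of 96.9, 98.7, 99.1 and 98.1, with peaks of 4492, 5817, 6512 and 4707 bp, in the upper 20% of every list. The 10 pairs of DNA replication genes had peaks in all 4 lists, as did 94.3% of all pairs and 48.9% of all coding promoters, and unpaired genes of the group had peaks in 94.9% in each list. Gart/Son, a purine synthesis gene and a splicing cofactor gene, led them with 98.6, 97.8, 98.2 and 98.3, and Mcm4/Prkdc, a helicase subunit and the catalytic subunit of the DNA-dependent protein kinase, had 93.4, 93.2, 87.1 and 92.9. Rpa1/Smyd4, with the large subunit of the single-strand binding protein, varied more, at 84.1, 62.5, 79.0 and 85.0.

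Mitochondrial genes were well represented. Mitochondrial ribosome proteins gave 18 pairs and 23.1% of their group, and respiratory chain genes gave 23 pairs and 23.0%. All 18 and all 23 had peaks in every list, as did 94.3% of all pairs and 48.9% of all coding promoters. Unpaired genes of these groups had peaks in 96.7% to 98.3% and in 90.9% to 93.5%, so that the counts are not particular to the pairs. Mrps18b/Ppp1r10 was the highest of the former, at 97.1, 99.9, 99.7 and 99.2, and Lrrc46/Mrpl10 the lowest, at 77.6, 75.5, 71.6 and 74.9. Mrps12/Sars2, which joins a mitochondrial ribosomal protein and the mitochondrial seryl-tRNA synthetase, had 85.6, 84.8, 88.9 and 82.8, close in all lists. Stxbp4/Cox11, with a copper chaperone of cytochrome oxidase, led the respiratory chain group at 96.9, 88.6, 98.7 and 99.2. Sdhd/Timm8b, with a subunit of succinate dehydrogenase, was the lowest at 79.7, 71.6, 68.6 and 69.0. Atp5h/Kctd2 showed the widest gap of that group between lists, at 79.5, 45.2, 80.4 and 85.5, with the Gfi1 list of tumor 41 lowest.

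Cytosolic ribosome proteins gave 9 pairs, 8 of them with peaks in every list (94.3% of all pairs, 48.9% of all coding promoters), and unpaired genes of the group had peaks in 85.3% to 86.7%. The exception was Rnf151/Rps2, which had 98.6, 95.4 and 88.1 in 3 lists and no peak in the Lsd1 list of tumor 41. Med22/Rpl7a lay under peaks of 4479, 11176, 11580 and 5854 bp, the widths differing between the tumors within each factor. The 5 proteasome pairs, the 8 chaperonin and heat shock pairs and the 5 aminoacyl-tRNA synthetase pairs had peaks in all 4 lists, near the 94.3% of all pairs and above the 48.9% of all coding promoters. Unpaired genes of these 3 groups had peaks in 82.9% to 96.8%. S100pbp/Yars, with tyrosyl-tRNA synthetase, was at 98.6, 98.6, 98.5 and 99.2, Psmb1/Tbp, with a proteasome subunit and the TATA-binding protein, at 97.2, 98.0, 92.7 and 95.5, and Tecr/Dnajb1, with a co-chaperone, at 99.7, 96.7, 97.4 and 94.5. Sirt1/Dnajc12 was the lowest of the chaperonin and heat shock group, at 73.4, 79.7, 76.3 and 68.9.

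Zinc finger genes gave 18 pairs and 5.19% of the group, close to the 6.86% of all coding genes, and 17 had peaks in all 4 lists, a share like the 94.3% of all pairs, where 48.9% of all coding promoters did. Dedd2/Zfp526 was the highest at 98.6, 98.8, 99.7 and 99.2. Zfp944/Zfp758, a pair of zinc finger genes on both sides, was at 69.8, 59.8, 47.8 and 67.4, and Zfp558/Mbd3l1 had no peak. The collagen list matched 2 pairs by symbol, of which Polk/Col4a3bp holds a ceramide transfer protein gene and no collagen gene. None of 13 autosomal genes that the study named for neuronal differentiation and migration or as candidate Gfi1 targets, such as Neurod1 and Nfia, is in a bidirectional pair (0 pairs). Of all coding genes only 6.86% are in pairs, so that 0 of 13 is near that share and says nothing particular of these genes.

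The 21 pairs without a peak were mostly poor in CpG. Of these, 14 had fewer than 20 CpG per 1000 bp and 18 fewer than 40, where the median of all pairs was 68. Col4a4/Col4a3, the textbook pair of basement membrane collagens, 72 bp apart with 42 CpG per 1000 bp, had its nearest peak 137327, 137176, 137355 and 137263 bp away. Lrrc63/Lcp1, with the leukocyte actin bundler Lcp1 and 46 CpG, Aspa/Gm49340, with the aspartoacylase of oligodendrocytes and 39 CpG, and Patl2/Terb2, with a meiotic telomere protein and 29.5 CpG, also lay 36946 bp or more from any peak. Pecam1/Milr1, Smyd1/Cd8b1 and Ifit1bl2/Ifit1 hold genes known from endothelium, T cells and the interferon response. In 6 of the 21 pairs another annotated coding start of the same gene, outside the region, had a peak in all 4 lists. Trim28, the corepressor of zinc finger proteins, Ccnt1, the cyclin of the elongation factor P-TEFb, Rnf14, Rab3il1, Zfp558 and 4930430F08Rik are those genes, so that the annotated 5' end used here is not their occupied start.

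Only 2 pairs had peaks of both factors in 1 tumor and none in the other. Kirrel2/Nphs1, with the podocyte protein nephrin, had a Gfi1 peak at percentile 61.8 and an Lsd1 peak at 41.8 in tumor 39, and Duox2/Duoxa2, which makes hydrogen peroxide in the thyroid, had 49.0 and 44.2. No pair had peaks in tumor 41 alone. In tumor 41 the Gfi1 list was the shorter of the 2 (25078 against 36836 peaks) and the Lsd1 list the longer (33213 against 30367). The cause of this pattern was not tested.

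The ranks of Gfi1 and Lsd1 at the same pair were mostly close. The median difference in percentile, Gfi1 minus Lsd1, was 2.77 in tumor 39 and -1.57 in tumor 41 over the 673 pairs with all 4 peaks, and 77.7% and 77.3% of the pairs lay within 10 points. In 170 pairs Gfi1 ranked above Lsd1 in both tumors and in 134 below. In 369 the sign changed between the tumors or a difference was 0. Taken tumor by tumor, Gfi1 ranked above Lsd1 in 65.5% of the pairs in tumor 39 and in 39.8% in tumor 41. The counts for both tumors were not set against those that unrelated tumors would give. They therefore do not show that a rank difference at a pair repeats between tumors. The pairs at the ends were ranked by the smaller of the differences in the 2 tumors, and their values are given as a description. Ginm1/Ppil4 on chromosome 10 had Gfi1 percentiles of 86.1 and 95.6 and Lsd1 percentiles of 71.4 and 77.2. Eif2b1/Gtf2h3, a translation initiation factor gene and a TFIIH subunit gene only 9 bp apart, had 85.0 and 91.9 for Gfi1 and 73.0 and 73.4 for Lsd1. Palb2/Dctn5, with the partner of Brca2, had 83.6 and 82.5 against 70.8 and 71.0. Parpbp/Nup37 and Poll/Gm17018, with DNA polymerase lambda, were the other 2 of the 5.

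In the other direction Tctn3/Entpd1, a ciliary transition zone gene and the ectonucleotidase CD39, had Gfi1 percentiles of 66.8 and 58.3 and Lsd1 percentiles of 86.5 and 82.5. Ccdc151/Prkcsh, with a dynein docking protein of cilia, had 78.0 and 82.0 for Gfi1 and 99.2 and 97.9 for Lsd1. Tbc1d10b/Mylpf, with the fast skeletal myosin light chain, had 83.0 and 70.4 against 97.8 and 94.2, and Klc3/Ckm, with muscle creatine kinase, had 68.9 and 46.8 against 79.4 and 80.7. In these 2 pairs the Lsd1 peaks were also the wider ones, at 5094 and 5503 bp against 3295 and 1889 bp for Gfi1, and at 4700 and 3469 bp against 1328 and 1477 bp. Gfi1 had 2 separate peaks, neither over both TSSs, at Tbc1d10b/Mylpf in tumor 41 and at Klc3/Ckm in both tumors. There the Gfi1 width is that of the higher-scoring of the 2 peaks alone. Tatdn3/Nsl1, with a kinetochore protein, had 78.8 and 49.7 for Gfi1 and 88.5 and 89.4 for Lsd1.

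The other 3 of the 5 pairs with the highest mean percentile held no histone gene. Hist2h2ac/Hist2h2be had the same mean percentile as Bola1/Hist2h2ab, and the tie was settled by chromosome position. Each of the 3 pairs had the tied score of 3100 in some lists, so that their order rests on the other lists. Cryzl1/Itsn1, with the endocytic scaffold Itsn1, had 98.6, 99.97, 99.7 and 99.2. Cep57/Fam76b, with a centrosomal protein, 609 bp apart, had 98.6, 99.7, 99.98 and 99.2, and Cd3eap/Ppp1r13l, a subunit of RNA polymerase I and an inhibitor of p53, had 98.6, 99.7, 99.7 and 99.2 with peaks of 8076, 5851, 8515 and 8652 bp. All 3 were in the upper 20% of each list.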

How the data were processed

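The study immunoprecipitated Gfi1 and Lsd1 from tumors 39 and 41. The authors aligned reads to mm10 with BWA 0.6.2, removed duplicates with Picard and called peaks with MACS in each library against input, and FastQC is named in the submitters' processing notes. Each deposited list holds the position of every peak and its score. The definition of the authors' score is not given in the sources used here, and it served only to rank peaks within a list. Peak starts were read as counted from 0.

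Genes were taken from GENCODE M21, where the authors used M9, and sequence from GRCm38. No peak lay beyond a chromosome end (0). Each gene entered 1 pair, the closest. A peak counted with 1 bp in the region, and the highest-scoring one gave percentile and width. CpG was counted in 1000 bp, and for a pair it was the mean of both TSS windows of 500 bp on each side. Motifs were searched in a single window of 1000 bp, for a pair around the middle between the TSSs. Steps used Python 3.11.15, numpy 2.4.6, pandas 2.3.3, scipy 1.17.1 and matplotlib 3.10.9. The pair search and region values were tested on simulated data.

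Shares have exact 95% binomial intervals (Clopper-Pearson, counting error only). Differences were taken per tumor, as mean ± SD over 2 tumors, with exact sign-flip or permutation tests. With 2 tumors the sign-flip p-value shows only whether both differences had the same sign, and not how far they lay apart. The permutation test compared the factors over 2 against 2 libraries. Same-numbered libraries come from 1 tumor, by the labels. Over 673 pairs the deviations of same-numbered libraries from their factor's mean correlated with r = -0.327.

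Named pairs were textbook bidirectional genes, the 5 with the highest mean percentile, the 5 with the largest difference between factors in each direction (ranked by the smaller of the 2 tumors' differences, of the same sign), the 5 of highest CpG content without a peak, the 5 widest pairs with 1 peak over both TSSs (1 is not reported here), pairs occupied in 1 tumor only, and the highest and lowest pairs of 12 gene groups. Other group members, and the pairs without a peak named by tissue, were chosen after their values were seen. The pairs, lists and tests were chosen with earlier results of these data known. Alternatives varied the distance, flank, overlap, window, TSS choice, score cutoff, comparison class and CpG weighting, and left out each library. Expression experiments and the input were not analysed here.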

Additional observations from a re-analysis of the deposited data

Results flagged for a closer look

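The factors changed order between the tumors at bidirectional promoters. The share with a peak, Gfi1 minus Lsd1, was 0.70 percentage points in tumor 39 and -1.68 in tumor 41, and the median percentile, Gfi1 minus Lsd1, was 2.80 in tumor 39 and -0.894 in tumor 41. With 1 library per factor and tumor this change of sign was not tested.

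The X chromosome was left out of the pairs. It holds 19 bidirectional promoters by the same rule, and a peak was found at 78.9% and 63.2% of them for Gfi1 and at 68.4% and 73.7% for Lsd1, in tumors 39 and 41, each below the autosomal shares of 94.5% to 96.8%. The difference was not tested.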

How the results depend on the processing

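In 23 alternatives 180 values were recomputed. Of these, 4 changed direction, and 9 with no test moved by more than 1 SD over the tumors or out of their 95% interval. The other 167 kept their direction, but the rule on size was not applied to values with a test. Some of those values moved by more than 1 SD. With the CpG weighting the difference in Gfi1 share fell from 41.8 to 10.4 percentage points, where the SD over the tumors was 6.20. With the direction kept, 17 moved by over 1.5 times, through the CpG weighting, the score cutoffs or, for the small difference between the factors, the overlap or a library left out. Keeping only peaks of the upper 20% turned 3 directions. The difference in median width, bidirectional minus unpaired, became -8.0 bp for Gfi1 and -160.25 bp for Lsd1, and the share of pairs with a peak, Gfi1 minus Lsd1, became 0.910 percentage points. Without Gfi1 replicate 2 (tumor 41) that last difference was 0.630, and over the lists left out in turn it ran from -1.61 to 0.630. The cause was not tested.

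Pairs with 1 peak over both TSSs made up 72.1% for Gfi1 and 71.4% for Lsd1 with peaks of the upper 20%. For Lsd1 the share was 93.8% with peaks of the upper 50%, 96.7% with pairs up to 300 bp, 96.5% up to 500 bp, 94.5% with the starts of all coding transcripts (1033 pairs) and 95.9% without pairs that hold a predicted Gm gene. A peak in all 4 lists was found at 55.0% of pairs in the upper 20% and 90.1% in the upper 50%. The CpG weighting lowered the differences in share to 10.4 and 10.3 percentage points, and the upper 20% lowered those in percentile to 1.72 and 0.858, for Gfi1 and Lsd1. With the upper 50% the differences in width were 229 and 179 bp and that in the Lsd1 percentile 6.00.

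Taken as pairs of libraries from 1 tumor (replicate block), Gfi1 minus Lsd1 was -0.490 with an SD of 1.68 (exact sign-flip test, p = 1). Crossed pairs of libraries, tried after the negative correlation was seen, gave 0.560 and -1.54. Without read counts, depth behind a missing peak is unknown. Settings added after seeing the data were the pairs without Gm genes, the joint window and CpG weighting, equal list lengths and the crossed pairs.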
